A study of Mus musculus with 12 samples.

Results

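The slow and fast fibre sarcomere genes are 36 genes for proteins of the contractile apparatus of skeletal muscle, listed by name, and all 36 were found among the 23185 genes with 1 symbol on the arrays. They comprise 12 genes of slow fibres, 14 genes of fast fibres and 10 genes that both fibre types use or that mark neither of these classes. Their levels were measured in gastrocnemius, the large calf muscle, of 12 mice, on 1 microarray a mouse, with 3 mice in each of 4 groups. The mice were of the strain BKS.Cg-Dock7m +/+ Leprdb/J, which carries the db mutation of the leptin receptor, a mutation that causes obesity and diabetes when both copies are affected. The labels do not state the copies carried or the sex of each animal. Mice of all groups were 12 weeks old, were fed regular diet and had received adenovirus that codes for short hairpin RNA (shRNA), which directs the degradation of a chosen transcript.

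Control animals (18, 19 and 20) received 4e+09 plaque-forming units of control shRNA virus. LCN13 animals (21, 22 and 23) received 2e+09 units of virus against LCN13, a secreted lipocalin, and 2e+09 of control virus. TSC22D4 animals (25, 26 and 27) received 2e+09 units of virus against TSC22D4, a transcriptional regulator, and 2e+09 of control virus. Animals of the combined group, TSC22D4+LCN13 (29, 30 and 32), received 2e+09 units of each targeting virus and no control virus. All were killed 1 week after injection, and 3 of the 7 animals treated in each group were chosen by the submitters as representative. No promoter that drives the shRNA and no batch is given in the sources used here, and every animal had received virus.

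A sarcomere shortens when myosin heavy chains pull on actin filaments. Calcium is sensed by troponin, which lies with tropomyosin on the actin filament, and titin, nebulin, alpha-actinin and the myomesins hold the filaments in register. Most of these proteins exist in forms encoded by different genes, and slow fibres, which resist fatigue, and fast fibres, which contract quickly, use different sets of them. The mouse gastrocnemius is a mixed muscle made mainly of fast fibres, with slow fibres concentrated in its deep part, so that the mix of fibre types in a sample depends on where it is taken as well as on the animal.

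Levels are on the log2 scale, on which 1 unit is a factor of 2, and levels of different genes are not compared because each has its own probe set. Over all 12 arrays the levels of all probe sets ran from 4.78 to 14.09 with a median of 5.45. All 36 sarcomere genes lay above the median of every array. The 5 genes taken as markers of skeletal muscle fibres (Ckm, Mb, Acta1, Mylpf and Tnnt3) lay above the 99.7th percentile of every array, and their mean deviation from the 12-array means stayed between -0.025 and 0.025. Of these, Mb, Acta1, Mylpf and Tnnt3 are also among the 36 sarcomere genes. All 5 were read near the top of arrays that share a common distribution, so this small deviation does not measure equal fibre content. Of 6 heart muscle genes, Myh6, the fast heart myosin, reached at most 5.93 and the other 5 at most 5.42, which bears on the slow genes Myh7, Myl2, Myl3 and Tnnc1, since heart muscle uses them too. Neither targeted gene passed the threshold against control in muscle: Tsc22d4 lay between 6.43 and 7.01, with means above control by 0.24, 0.22 and 0.23 in the TSC22D4, LCN13 and combined groups, and Obp2a, the mouse gene for LCN13, between 4.90 and 4.97, with adjusted p of 0.337 or more in each targeting group (limma). These samples hold whole muscle, so fewer fibres of a type and less RNA in each fibre cannot be told apart. The labels give 1 number per animal, and the p-values measure the spread between these animals.

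The slow genes moved together from animal to animal within each group, whereas most fast genes were nearly flat over the 12 arrays. No slow gene passed the threshold between groups, where at most 4.34% of all genes passed in any comparison. Among the 36 sarcomere genes, falls past the threshold were limited to 4 in these fits: the myosin light chain kinase Mylk2, the M-band protein Myom1 and the giant filament proteins Ttn and Neb. The 12 slow genes had a median SD over the 12 arrays of 0.232, against 0.053 for the 14 fast genes and 0.081 for the 10 common genes. For comparison, 208 other genes with a mean at or above the 99th percentile of the array had a median SD of 0.0824, and 11556 other genes above the median level had 0.129. Position on the scale differed too, since 11 of 14 fast genes and 8 of 10 common genes, but 3 of 12 slow genes, lay in the top 1% of probe sets on every array. The part of that position in the small spread of the fast genes was not tested.

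**Figure D1:**
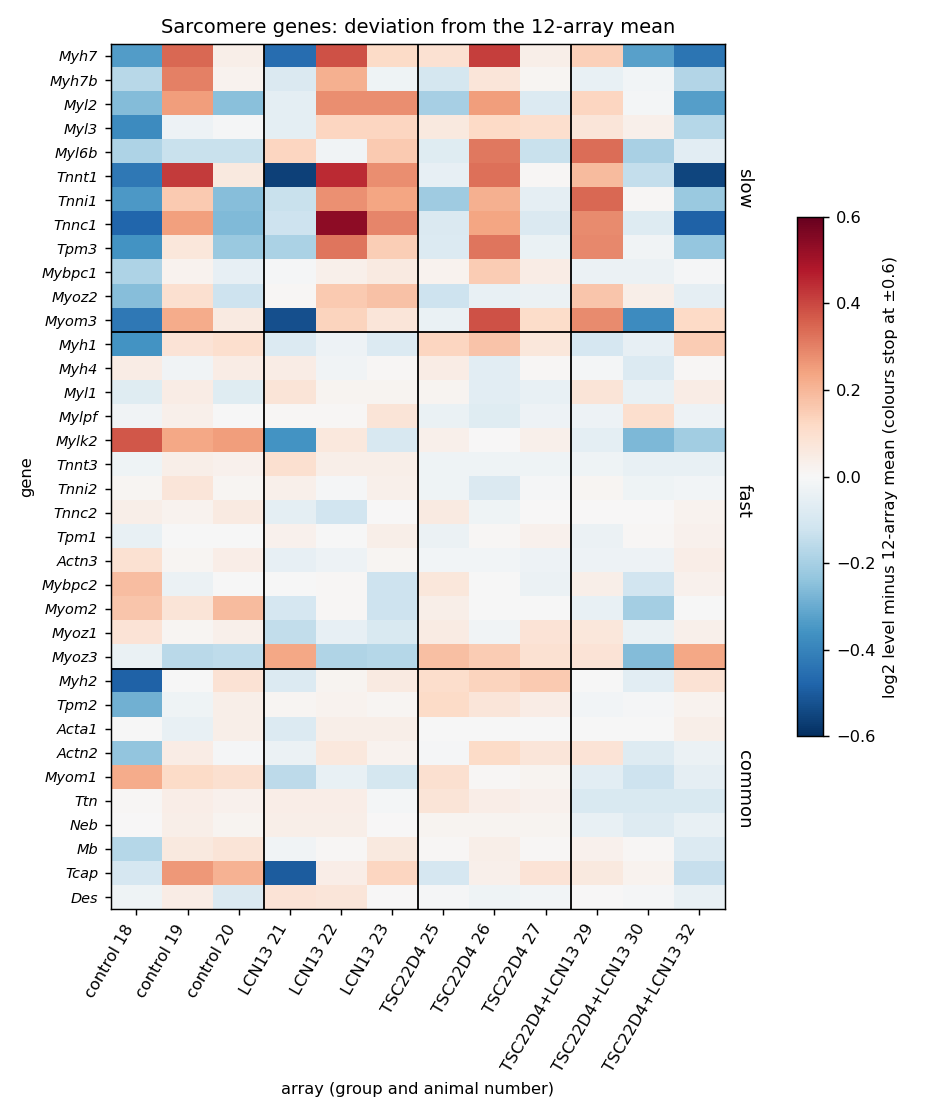
Deviation of each of the 36 sarcomere genes (rows) from its own 12-array mean, in log2 units, on each of the 12 arrays (columns, grouped by shRNA virus); red is above and blue below the mean, and colours stop at 0.6 in either direction. The slow genes at the top switch colour together from animal to animal inside each group, while most fast genes stay pale, with Mylk2 and Myom2 red in controls.

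RefSeq (GRCm38.p6) upstream windows are shown for the 4 slow genes that followed the other slow genes most closely (tropomyosin Tpm3, troponin C Tnnc1, troponin I Tnni1 and troponin T Tnnt1) and for Myh7, the slow myosin heavy chain. Each run is the 250 bases before the first listed transcription start, 5′ to 3′ on the gene's strand, at chr3:90072401-90072650 (plus strand) for Tpm3, chr14:31208062-31208311 (plus) for Tnnc1, chr1:135799171-135799420 (plus) for Tnni1, chr7:4515976-4516225 (minus) for Tnnt1 and chr14:54994627-54994876 (minus) for Myh7. Capitals mark the E-box, CANNTG, a short sequence bound by the MyoD family of muscle transcription factors and by many others.
Tpm3: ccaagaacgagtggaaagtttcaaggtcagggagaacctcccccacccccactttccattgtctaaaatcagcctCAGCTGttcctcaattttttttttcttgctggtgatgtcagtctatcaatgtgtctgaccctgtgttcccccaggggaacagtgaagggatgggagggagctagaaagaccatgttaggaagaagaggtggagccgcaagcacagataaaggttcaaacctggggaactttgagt
Tnnc1: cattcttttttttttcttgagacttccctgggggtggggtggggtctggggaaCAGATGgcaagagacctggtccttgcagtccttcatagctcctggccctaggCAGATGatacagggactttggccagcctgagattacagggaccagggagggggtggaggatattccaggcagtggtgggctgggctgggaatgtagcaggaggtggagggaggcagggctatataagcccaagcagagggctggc
Tnni1: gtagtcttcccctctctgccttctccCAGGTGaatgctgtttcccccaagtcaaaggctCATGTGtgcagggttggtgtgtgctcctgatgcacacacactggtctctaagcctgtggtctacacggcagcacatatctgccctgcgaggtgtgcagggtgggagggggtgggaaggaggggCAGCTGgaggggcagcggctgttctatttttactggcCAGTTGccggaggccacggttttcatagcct
Tnnt1: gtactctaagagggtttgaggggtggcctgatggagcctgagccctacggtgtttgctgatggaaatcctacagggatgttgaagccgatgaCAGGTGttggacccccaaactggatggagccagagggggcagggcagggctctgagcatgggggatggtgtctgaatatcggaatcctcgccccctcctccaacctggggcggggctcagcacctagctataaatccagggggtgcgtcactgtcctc
Myh7: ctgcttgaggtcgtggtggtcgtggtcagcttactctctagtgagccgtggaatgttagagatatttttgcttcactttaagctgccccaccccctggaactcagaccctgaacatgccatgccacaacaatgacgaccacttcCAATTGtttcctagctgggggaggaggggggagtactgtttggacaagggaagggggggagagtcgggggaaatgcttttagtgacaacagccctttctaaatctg

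Windows were listed for 27 of the 36 genes and named by symbol; Mylk2, Tnnt3, Tnni2, Actn3, Myom2, Myoz1, Myoz3, Neb and Tcap had none in the table. Both strands were searched, and a gene counted when any of its listed starts held a match. An E-box was found in 12 of 12 slow genes, 6 of 7 fast genes and 7 of 8 common genes, against 69.3% of 27025 genes. Its form CAGCTG, which is a subset of the E-box and stands in the Tpm3 and Tnni1 windows, was found in 5 slow, 3 fast and 4 common genes, against 14.7% of all genes. The MCAT element CATTCC, bound by TEAD factors, was found in 3 of 12 slow genes, 5 of 7 fast genes and 1 of 8 common genes, against 14.4% of all genes. The MEF2 element was found in 2 slow, 2 fast and 1 common genes against 3.42%, and the CArG element, bound by serum response factor, in 1, 1 and 2 against 1.62%. A match describes letters in these windows and is not a measured binding site.

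The slow myosin genes Myh7 and Myh7b each hold a microRNA gene inside them, and these are shown because they are read from the host transcripts. Capitals mark the seed, bases 2 to 8, in which 6 of 7 bases are shared. RefSeq (GRCm38.p6) places the first at chr14:54975710-54975731 (minus strand, inside Myh7) and the second at chr2:155622893-155622913 (plus strand, inside Myh7b).
mmu-miR-208b-3p: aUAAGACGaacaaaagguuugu
mmu-miR-499-5p: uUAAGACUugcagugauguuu

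The probe set of Mir208b lay between 4.94 and 5.19 and that of Mir499 between 4.95 and 5.05, both close to the lowest value on the arrays, so the host genes' variation could not be followed in the microRNA probe sets at these levels.

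Among the slow genes, Myh7, the motor protein of slow fibres, read 11.11, 11.79 and 11.48 in control animals 18, 19 and 20, 10.99, 11.83 and 11.56 in LCN13 animals 21, 22 and 23, 11.54, 11.86 and 11.48 in TSC22D4 animals 25, 26 and 27, and 11.59, 11.12 and 11.01 in combined animals 29, 30 and 32. The lowest values came from animals 21, 32, 18 and 30 and the highest from 26, 22 and 19, so the control, LCN13 and combined groups each held low animals and all 4 groups overlapped. Against control, Myh7 differed by 0.17 after TSC22D4 shRNA (95% interval -0.38 to 0.72), by -0.0020 after LCN13 shRNA (-0.55 to 0.55) and by -0.22 after both (-0.77 to 0.33), with adjusted p of 0.923, 0.998 and 0.679 (limma). The other slow myosin heavy chain, Myh7b, ran from 5.63 to 6.11, not far above the array median of 5.45, and did not pass the threshold in any comparison.

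Tnnt1, the slow troponin T that anchors the troponin complex to tropomyosin, read 10.58, 11.43 and 11.07 in controls, 10.45, 11.46 and 11.29 after LCN13 shRNA, 10.96, 11.34 and 11.02 after TSC22D4 shRNA and 11.20, 10.87 and 10.46 after both. The low animals were again 21, 32 and 18 and the high ones 22, 19 and 26. The LCN13 group alone filled this 2.02-fold range, and the control group nearly did. Group differences from control were 0.08, 0.04 and -0.19 after TSC22D4, LCN13 and both viruses, against a standard error of 0.301.

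Tnnc1, the slow troponin C that binds calcium, read 10.68, 11.40 and 10.89 in controls, 11.03, 11.69 and 11.45 after LCN13 shRNA, 11.07, 11.39 and 11.07 after TSC22D4 shRNA and 11.44, 11.08 and 10.67 after both. Animals 32 and 18 were lowest and 22 highest, again a 2.02-fold range, and the groups overlapped. Its difference of 0.40 after LCN13 shRNA (95% interval -0.15 to 0.94, adjusted p = 0.591, limma) was the largest of a slow gene in the 3 comparisons with control and did not pass. Tnni1, the inhibitory subunit of slow troponin, read 12.01, 12.51 and 12.10 in controls, 12.22, 12.63 and 12.59 after LCN13 shRNA, 12.14, 12.57 and 12.30 after TSC22D4 shRNA and 12.70, 12.36 and 12.13 after both, with the highest value in combined animal 29 and the lowest in control animal 18.

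Tpm3, the tropomyosin of slow fibres, ran from 11.61 in control animal 18 to 12.29 in animals 22 and 26. Myl2, the slow regulatory light chain, ran from 11.85 in combined animal 32 to 12.46 in LCN13 animals 22 and 23, and Myl3, the slow essential light chain, from 12.26 in control animal 18 to 12.77 in LCN13 animals 22 and 23. The remaining slow genes were Myl6b, a light chain (5.90 to 6.43), Mybpc1, the slow myosin binding protein C (12.73 to 13.07), Myoz2, a Z-disc calcineurin binding protein (12.30 to 12.73), and Myom3, an M-band myomesin (8.81 to 9.72). None of the 12 slow genes passed the threshold in any of the 6 comparisons or in the test across the 4 groups. Their smallest adjusted p in that test was 0.310 (limma). Of all genes, 0% to 4.34% passed in the 6 comparisons and 3.33% in that test. A count of 0 among 12 is near that share.

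The slow genes' common movement was summarised for each array as the mean deviation of the 12 genes from their own 12-array means. It was -0.318, 0.165 and -0.095 in control animals 18, 19 and 20, -0.175, 0.241 and 0.159 in LCN13 animals 21, 22 and 23, -0.066, 0.230 and -0.010 in TSC22D4 animals 25, 26 and 27 and 0.179, -0.095 and -0.217 in combined animals 29, 30 and 32. Each group held an animal above and an animal below zero. Myh7b and Myl6b, which were read not far above the array median, count in this measure as much as the other slow genes. Of the 12 slow genes, 12 were below their own mean in control animal 18, 11 in combined animal 32 and 10 in LCN13 animal 21, while 11 were above it in LCN13 animals 22 and 23 and TSC22D4 animal 26. The same measure for the 14 fast genes stayed between -0.076 and 0.036.

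**Figure D2:**
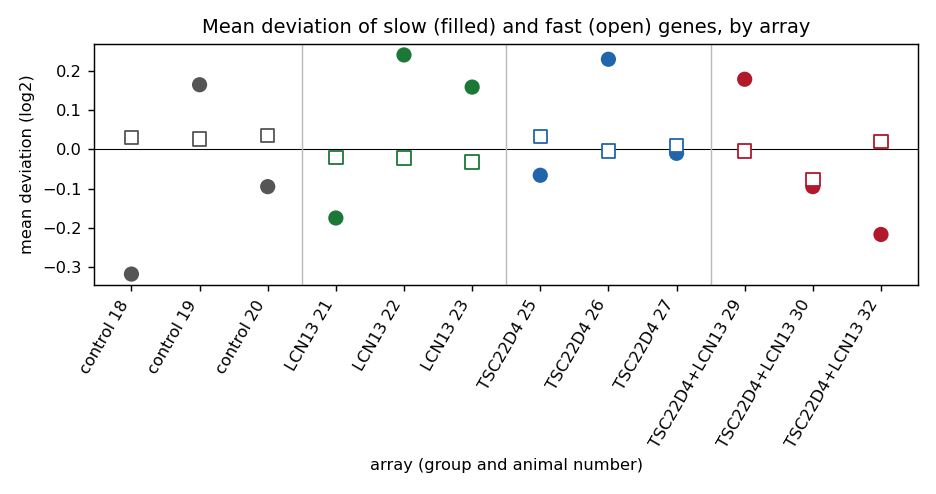
Mean deviation from the 12-array means, in log2 units (y axis), of the 12 slow genes (filled circles) and the 14 fast genes (open squares) on each of the 12 arrays (x axis), coloured by shRNA group. The slow genes span -0.318 to 0.241 with high and low animals in each group, and the fast genes span -0.076 to 0.036.

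In group means the slow score minus the fast score was above control by 0.21 after LCN13 shRNA, by 0.15 after TSC22D4 shRNA and by 0.089 after both viruses, beside a pooled SD within groups of 0.214. These differences are of the order of 1 SD between animals or less, and no test was run on them. The comparisons share the control animals, among which animal 18 was the lowest of all 12. Without control animal 18 the differences from control were 0.097, 0.036 and -0.027 in the same order, without control animal 19 they were 0.34, 0.28 and 0.22, and without combined animal 29 the last was -0.014. Control animal 18 also had the lowest score of the 12 for markers of smooth muscle (-0.336), nerve and Schwann cells (-0.350), endothelium (-0.206) and liver (-0.612). Its tendon score, -0.901, was above that of control animal 20, -1.029, whose slow score was -0.095. Among the animals with high slow scores, LCN13 animal 22 had the highest liver score, 1.398, whereas TSC22D4 animal 26 and combined animal 29 had -0.309 and -0.284. The part of these markers in the slow gene values was not tested.

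Across the 12 arrays, and without a test, the slow genes closest to the mean of the other slow genes were Tpm3 (r = 0.949), Tnnc1 (0.933), Tnni1 (0.913), Tnnt1 (0.896), Myl2 (0.886) and Myh7 (0.857), and the least close was Myl6b (0.502). Among the genes outside the slow list, Actn2, the alpha-actinin of all fibres, reached 0.835, the oxygen-binding Mb 0.705, the titin cap Tcap 0.542 and Myh2, the myosin of fast oxidative fibres, 0.503. The most opposed of the fast genes were Myh4, the myosin of the fastest fibres, at -0.543, the fast alpha-actinin Actn3 at -0.492 and the fast troponin C Tnnc2 at -0.461. All points come from the same 12 arrays, normalized to a common distribution.

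Of 8 gene pairs that were tested over the 12 arrays by permutation, Myh7 and Tnnt1 had the closest relation (r = 0.954, adjusted p = 0.00016; rho = 0.951, adjusted p = 0.00016, permutation). Without the animals farthest from the median of Myh7, LCN13 animal 21 and combined animal 32, r was 0.917 (permutation p = 0.00013), and for deviations from the group means over all 12 animals it was 0.972. Myh7 was also related to Tnni1 (r = 0.685, adjusted p = 0.037; rho = 0.713, adjusted p = 0.023, permutation), with r = 0.643 (permutation p = 0.048) without the same animals and 0.911 for deviations from group means. For Myh7 and Myl2, r was 0.719 (adjusted p = 0.037) and rho 0.746 (adjusted p = 0.019, permutation), with r = 0.693 (permutation p = 0.028) without those animals and 0.841 for deviations from group means. These relations therefore stood at least as high inside the groups as over all animals. Myh7 and Myh4 were not related past the threshold (r = -0.342, adjusted p = 0.36; rho = -0.565, adjusted p = 0.078, permutation), with r = -0.205 (permutation p = 0.56) without those animals and -0.573, untested, for deviations from group means.

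The relations of Mb with Myh7 and of Tnnt3 with Tnni2 passed in r over all 12 animals and not without the 2 farthest. Dropping those also leaves fewer animals and a narrower range of the first gene. The lost call alone therefore does not show that it rested on those animals. For Mb and Myh7, r was 0.638 (adjusted p = 0.037) and rho 0.628 (adjusted p = 0.053, permutation), and r was 0.488 (permutation p = 0.16) without control animal 18 and combined animal 32 and 0.638 for deviations from group means. For Tnnt3 and Tnni2, the fast troponin genes that lie on chromosome 7 with 1 protein-coding gene between them, r was 0.626 (adjusted p = 0.045) and rho 0.767 (adjusted p = 0.019, permutation), and r was 0.498 (permutation p = 0.14) without LCN13 animal 21 and control animal 19 and 0.491 for deviations from group means. Myh2, Myh1 and Myh4 are direct neighbours on chromosome 11, and neither Myh2 nor Myh1 was related to Myh4 past the threshold (r = -0.208 and -0.211, adjusted p = 0.53 for both, rho = -0.110 and -0.224, adjusted p = 0.73 and 0.55, permutation). Without the animals farthest from the median these pairs had r = 0.188 (permutation p = 0.60) and r = 0.333 (permutation p = 0.36).

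**Figure D3:**
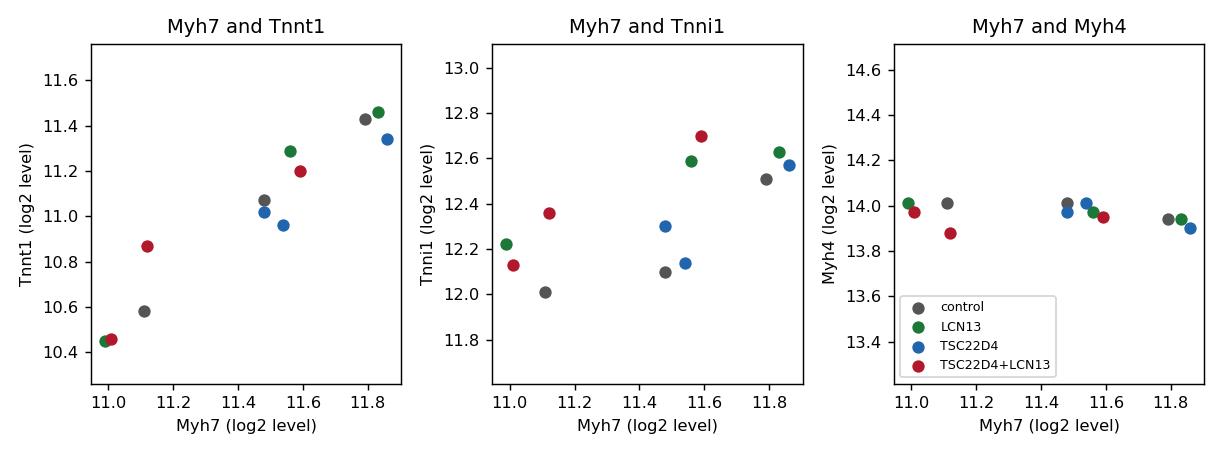
Log2 level of Tnnt1, Tnni1 and Myh4 (y axes, equal in length of scale) against that of Myh7 (x axis) on the 12 arrays, 1 point an animal, coloured by shRNA group. Tnnt1 rises with Myh7 over its whole range (r = 0.954), Tnni1 less closely (r = 0.685), and Myh4 stays between 13.88 and 14.01.

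Slow and fast partners of the same protein were set against each other as the slow minus the fast level, relative to the 12-array mean of that difference. Over the 12 animals this difference spanned 1.16 for troponin C (Tnnc1 and Tnnc2), 1.07 for troponin T (Tnnt1 and Tnnt3), 0.98 for myosin heavy chain (Myh7 and Myh4), 0.69 for troponin I (Tnni1 and Tnni2), 0.65 for tropomyosin (Tpm3 and Tpm1) and 0.63 for the regulatory light chain (Myl2 and Mylpf). It spanned 0.60 for the Z-disc myozenins (Myoz2 and Myoz1), 0.55 for myosin binding protein C (Mybpc1 and Mybpc2) and 0.48 for the essential light chain (Myl3 and Myl1). The slow genes Tnnc1, Tnnt1 and Myh7 alone ranged over 1.02, 1.01 and 0.87, and their fast partners over 0.17, 0.14 and 0.13. Those spans therefore largely repeat the slow genes' own variation. For Mybpc1 and Mybpc2 the ranges were 0.34 and 0.31. Control animal 18 was the lowest of the 12 in 6 of these 9 pairs, LCN13 animal 21 in the heavy chain and troponin T pairs and combined animal 32 in the regulatory light chain pair.

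The genes outside the list that most resembled the slow score over the 12 arrays, among 11556 candidates above the median level, were the imprinted noncoding RNA H19 (r = 0.899), the small heat shock protein gene Hspb7 (0.881), Apol6 and Nhlrc2 (both 0.855) and the actin-binding protein gene Ablim1 (0.852). Most opposed were Laptm4b (-0.847), Rnft1 (-0.815), Mamld1 (-0.812), Ippk (-0.792) and Ier3ip1 (-0.789). These are the extremes of many candidates over 12 points and are given as a description.

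Of the fast myosins, Myh4 was nearly level and Myh1 varied more. Myh4 read 14.01, 13.94 and 14.01 in controls, 14.01, 13.94 and 13.97 after LCN13 shRNA, 14.01, 13.90 and 13.97 after TSC22D4 shRNA and 13.95, 13.88 and 13.97 after both, and ranked between 3rd and 8th of the 25206 probe sets on each array. Its differences from control were -0.02 after TSC22D4 (95% interval -0.11 to 0.06), -0.01 after LCN13 (-0.09 to 0.07) and -0.05 after both (-0.13 to 0.03). Myh1, the myosin of intermediate fast fibres, read 12.81, 13.25 and 13.27 in controls and between 13.07 and 13.34 in the other animals, so that control animal 18 alone lay below the rest. Myh2 likewise read 12.00 in control animal 18, against 12.40 to 12.64 in the other 11 animals, and differed from control by 0.27 after TSC22D4 shRNA (adjusted p = 0.553, limma).

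The other fast filament genes stayed in narrow ranges. Over the 12 animals Mylpf, the fast regulatory light chain, ran from 13.17 to 13.34, the essential light chain Myl1 from 13.49 to 13.64, Tnni2 from 13.42 to 13.58, Tnnc2 from 13.73 to 13.90, the tropomyosin Tpm1 from 13.34 to 13.42, Actn3 from 13.76 to 13.90 and the fast myosin binding protein C Mybpc2 from 13.23 to 13.54. The Z-disc genes Myoz1 and Myoz3 ran from 13.12 to 13.35 and from 10.81 to 11.30. Tnnt3, the fast troponin T, read 13.73, 13.79 and 13.78 in controls, 13.85, 13.79 and 13.79 after LCN13 shRNA, 13.73 in each of the 3 TSC22D4 animals and 13.73, 13.71 and 13.71 after both. The combined animals lay below all LCN13 animals, and the difference of -0.10 had an adjusted p of 0.0508 (limma). Among the common genes the skeletal actin Acta1 (13.97 to 14.09), the intermediate filament Des (13.41 to 13.58), the tropomyosin Tpm2 (12.85 to 13.25), Actn2 (12.68 to 13.03), Mb (13.03 to 13.28) and Tcap (11.85 to 12.61) did not pass in any comparison.

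After TSC22D4 shRNA, 0 of the 36 sarcomere genes passed an adjusted p below 0.05 against control, where 78 genes of all, or 0.336%, did. The median difference of the 36 was 0.02 and that of all genes -0.0019, and 11 of 12 slow genes lay above zero with a median of 0.15. After LCN13 shRNA, 1 of 36 passed, Myom1, which was lower, where 197 genes, or 0.85%, did, of which the lower ones made up 0.612% of all genes. The median difference was 0.03 for the 36 and 0.0014 for all genes, and 9 of 12 slow genes lay above zero with a median of 0.21. After both viruses, 3 of 36 passed, or 8.33%, all of them lower (Mylk2, Myom1 and Ttn), where 1007 genes, or 4.34%, did, and the lower ones made up 2.62%. The median difference of the 36 was 0.01 beside -0.0050 for all genes. These 3 comparisons share the control animals.

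**Figure D4:**
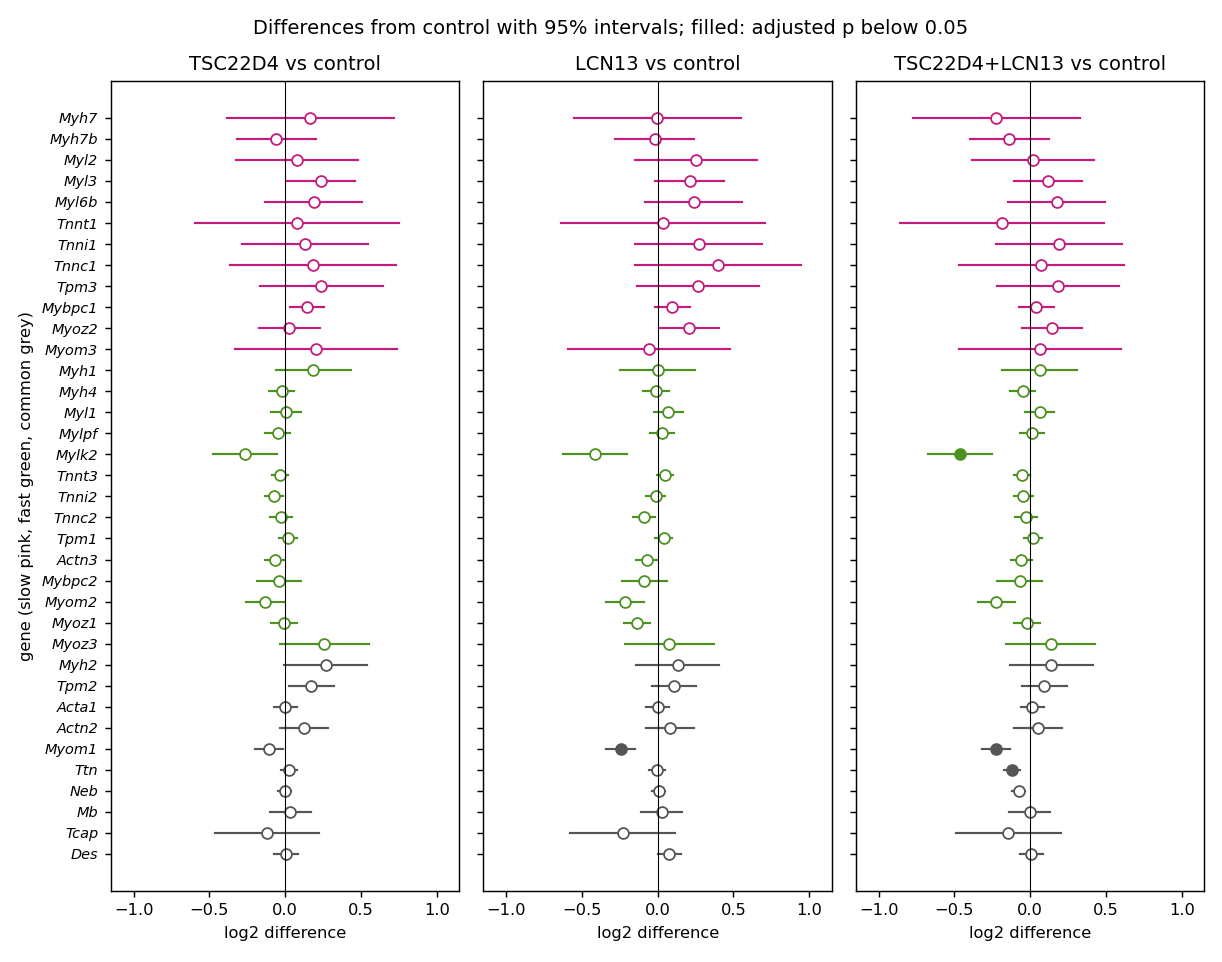
Difference from control in log2 level (x axis) of each of the 36 sarcomere genes (rows; slow pink, fast green, common grey) after TSC22D4, LCN13 and both shRNA viruses, with 95% intervals from the limma fit; filled circles passed an adjusted p below 0.05. Filled are Myom1 after LCN13 shRNA and Mylk2, Myom1 and Ttn after both, and the slow genes have the widest intervals.

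The combined group differed from the TSC22D4 group in 0 of 36 sarcomere genes and in 0 of all genes, or 0%, by limma, with 2434 genes at an unadjusted p below 0.05. Against the LCN13 group, 2 of 36, or 5.56%, passed, both lower (Ttn and Neb), where 977 genes, or 4.21%, did, with the lower ones at 2.9%. In the interaction, which asks whether the difference made by TSC22D4 virus is the same with and without LCN13 virus, 0 of 36 passed, where 29 genes, or 0.125%, did. All 12 slow genes lay below zero there, with a median of -0.27 beside -0.0032 for all genes, and their smallest adjusted p was 0.411 (limma). Since the slow genes move together, 12 equal signs are not 12 separate observations. The test across the 4 groups called 2 of 36, Myom1 and Ttn (adjusted p = 0.0308 and 0.0281, limma), where 773 genes, or 3.33%, passed.

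Mylk2, the skeletal kinase that phosphorylates the regulatory light chain and is most abundant in fast fibres, read 12.71, 12.57 and 12.59 in controls, 11.98, 12.40 and 12.24 after LCN13 shRNA, 12.37, 12.34 and 12.37 after TSC22D4 shRNA and 12.28, 12.07 and 12.13 after both. All 9 animals with a targeting virus lay below the 3 controls. The mean was 12.62 ± 0.08 in controls (SD, n = 3) and 12.16 ± 0.11 after both (SD, n = 3), a fall of 1.38-fold (log2 difference -0.46, standard error 0.0938, adjusted p = 0.0280, limma). The difference was -0.41 after LCN13 shRNA (adjusted p = 0.0892) and -0.26 after TSC22D4 shRNA (adjusted p = 0.406), and neither passed. The call after both viruses was lost without any 1 of control animals 18, 19 and 20 or combined animals 30 and 32 (adjusted p up to 0.0839), and with the arrays of these 2 groups alone (0.0573).

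Myom1, which crosslinks myosin filaments at the M-band, read 12.55, 12.44 and 12.42 in controls, 12.17, 12.28 and 12.22 after LCN13 shRNA, 12.42, 12.33 and 12.34 after TSC22D4 shRNA and 12.26, 12.20 and 12.27 after both. The LCN13 and combined animals all lay below the controls, and the TSC22D4 animals lay between. It fell 1.18-fold after LCN13 shRNA (log2 difference -0.24, standard error 0.0423, adjusted p = 0.0345) and 1.17-fold after both (-0.23, adjusted p = 0.0214, limma), and its difference of -0.11 after TSC22D4 shRNA did not pass (adjusted p = 0.471). The call after LCN13 shRNA was lost without any 1 of 8 animals, among them all 3 controls and LCN13 animals 21 and 23 (adjusted p up to 0.124). The call after both was lost without control animal 18 (0.0542). With the arrays of the compared groups alone the adjusted p was 0.126 and 0.0821. The call after LCN13 shRNA was also lost with genes above the median level only (0.0562) and with limma's trend and robust options (0.0555).

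Myom2, the myomesin of fast fibres, had a like order of groups without a call. It read 12.36, 12.27 and 12.38 in controls, 12.09, 12.20 and 12.07 after LCN13 shRNA, 12.23, 12.19 and 12.19 after TSC22D4 shRNA and 12.15, 11.99 and 12.19 after both, and all 9 animals with a targeting virus lay below the controls. Its differences from control were -0.22 after both (adjusted p = 0.0546) and -0.21 after LCN13 (adjusted p = 0.126, limma).

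Ttn, the gene of titin, the elastic filament that spans from Z-disc to M-band, read 13.80, 13.83 and 13.82 in controls, 13.83, 13.83 and 13.78 after LCN13 shRNA, 13.87, 13.83 and 13.82 after TSC22D4 shRNA and 13.70 in each of the 3 combined animals. The combined animals lay below all 9 others. Because the arrays were given a common set of values, an equal rank gives an equal value: Ttn ranked 18th of 25206 in the 3 combined animals and between 9th and 14th in the others. The difference from control was -0.12 (1.09-fold, standard error 0.0235, adjusted p = 0.0242), that from LCN13 -0.12 (adjusted p = 0.0270) and that from TSC22D4 -0.15 (adjusted p = 0.136, limma). The call against control was lost without control animals 19 or 20 or combined animal 32 (adjusted p up to 0.0802), and that against LCN13 without LCN13 animals 21 or 22 or combined animals 29 or 32 (up to 0.0866). Among genes above the median level alone, with an own estimate of the spread, the adjusted p was 0.146 and 0.159.

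Neb, the gene of nebulin, which runs along the thin filament, read 13.87, 13.90 and 13.88 in controls, 13.90, 13.90 and 13.87 after LCN13 shRNA, 13.88 in each of the 3 TSC22D4 animals and 13.82, 13.79 and 13.82 after both. The combined animals were again below all others, at ranks 12 and 13 against 7 to 9. The difference from LCN13 was -0.08 (1.06-fold, standard error 0.0190, adjusted p = 0.0472, limma), that from control -0.07 (adjusted p = 0.0603), and dropping any 1 of the 12 animals ended the call (adjusted p up to 0.133). Both Ttn and Neb were read at the top of the arrays' range.

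**Figure D5:**
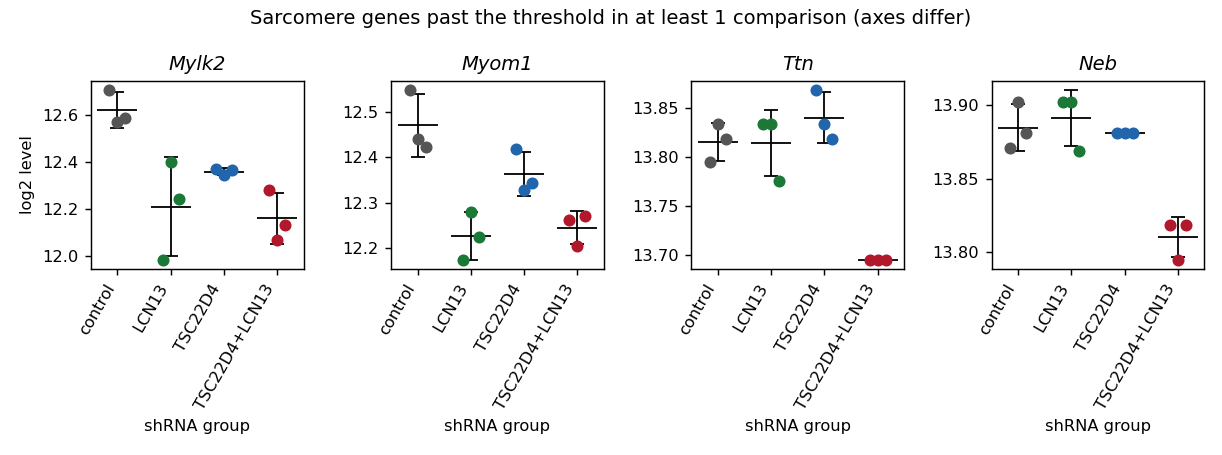
Log2 level (y axes, which differ between panels) of Mylk2, Myom1, Ttn and Neb in the 4 shRNA groups (x axis), 1 point an animal, with the mean and SD of 3 animals. For Mylk2 all targeting groups lie below the controls, and for Ttn and Neb only the TSC22D4+LCN13 animals lie below the rest.

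Markers of other cells differed between the same groups. Both measured red cell genes, Hbb-b1 and Alas2, rose after both viruses against control (by 1.87 and 1.42, adjusted p = 0.0329 and 0.0480) and against LCN13 (limma), and their score ran from 0.396 to 1.815 in the combined animals and from -0.895 to -0.154 in controls. Of 5 macrophage genes, all 5 lay higher in the combined group than in control and 2 passed, Mrc1 (0.81, adjusted p = 0.0200) and Adgre1 (0.49, adjusted p = 0.0405, limma). The macrophage score ran from 0.126 to 0.745 in combined animals and from -0.299 to -0.127 in controls. All 7 tendon genes lay higher after LCN13 shRNA and after both viruses than in control, with medians of 0.75 and 0.65, and none passed. After TSC22D4 shRNA 6 of 7 lay higher, with a median of 0.42, as did the 2 red cell genes and all 5 macrophage genes, and none passed. The tendon scores of control animals 18, 19 and 20 were -0.901, 0.115 and -1.029. The part of these markers in the falls of Mylk2, Myom1, Ttn and Neb was not tested.

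Further genes of the sarcomere and its attachments were measured for 31 of 32 listed. After TSC22D4 shRNA 0 of 31 passed. After LCN13 shRNA 1 passed, Trim63, the muscle ubiquitin ligase that marks sarcomere proteins for degradation. It read 11.08, 10.75 and 10.71 in controls, 9.87, 10.25 and 10.18 after LCN13 shRNA, 10.83, 10.61 and 10.59 after TSC22D4 shRNA and 10.71, 10.76 and 10.69 after both. Only the LCN13 animals were low, with differences of -0.75 from control (adjusted p = 0.0251) and of 0.62 between the combined and LCN13 groups (adjusted p = 0.0261, limma). The first call was lost without control animals 18 or 20 or LCN13 animals 21 or 23 (adjusted p up to 0.0655), and the second without LCN13 animal 21 or combined animals 29 or 32 (up to 0.0660).

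After both viruses 2 of these 31 genes rose and 1 fell against control. The stretch-responsive Z-disc gene Csrp3 rose by 0.72 (adjusted p = 0.0335) and the small heat shock protein gene Hspb1 by 0.57 (adjusted p = 0.0325), while the actin-bundling gene Synpo2 fell by 0.21 (adjusted p = 0.0335, limma). Csrp3 read 10.53, 10.91 and 10.87 in controls and 11.42, 11.43 and 11.61 in combined animals, with the LCN13 animals at 11.09, 11.23 and 11.47. Dropping 1 animal ended each of these 3 calls in 5 to 8 of 12 cases, among them each control. Against LCN13, 3 fell, Synpo2 (-0.26, adjusted p = 0.0180), Pdlim5 (-0.45, adjusted p = 0.0310) and Myot (-0.09, adjusted p = 0.0464, limma), the last 2 being Z-disc proteins, and dropping 1 animal ended the calls in 1, 4 and 12 of 12 cases.

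Calcium handling and metabolic genes of slow fibres were measured for 12 of 13 listed. They lay above the shared controls in 11 of 12 cases after TSC22D4 shRNA (median 0.12), in 12 after LCN13 shRNA (0.14) and in 10 after both (0.14). The medians of all genes were -0.0019, 0.0014 and -0.0050. The mean deviation of these 12 genes was -0.264 in control animal 18, against -0.056 and -0.086 in control animals 19 and 20. Equal signs in genes of the same animals are not separate observations. After TSC22D4 shRNA 0 passed, and after LCN13 shRNA 1 rose past the threshold, the fatty acid carrier Cd36 (0.30, adjusted p = 0.0151, limma). After both viruses 2 rose, Casq2, the slow and cardiac calsequestrin that stores calcium (0.58, adjusted p = 0.0476), and the carbonic anhydrase Car3 (0.13, adjusted p = 0.0460). Casq2 read 10.11, 10.10 and 10.07 in controls, 10.38, 10.83 and 10.82 after LCN13 shRNA, 10.46, 10.78 and 10.53 after TSC22D4 shRNA and 10.85, 10.45 and 10.71 after both. The 3 controls lay below all other animals and close to one another, unlike their Myh7 and Tnnt1 levels. Dropping 1 animal ended the Casq2 and Car3 calls in 10 of 12 cases each (adjusted p up to 0.129 and 0.130), and that of Cd36 in 3 (up to 0.0636). Of 14 measured genes of fast fibre calcium handling and glycolysis, 1 passed, the phosphofructokinase Pfkm, which fell by 0.25 after LCN13 shRNA (adjusted p = 0.0429) and lost its call in 10 such cases (up to 0.151).

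Regulators of fibre type were measured for 28 of 29 listed, and 2 fell after both viruses against control. Tead1, a TEAD factor that binds the MCAT element, read 11.67, 11.67 and 11.77 in controls, 11.72, 11.72 and 11.65 after LCN13 shRNA, 11.73, 11.62 and 11.58 after TSC22D4 shRNA and 11.44, 11.38 and 11.50 after both. The combined animals lay below all others, with differences of -0.26 from control (adjusted p = 0.0197) and -0.26 from LCN13 (adjusted p = 0.0227, limma), and the first call was lost without control animal 20 alone (0.0679), the second without LCN13 animals 21 or 22 or combined animal 29 (up to 0.0726). Hdac5, a histone deacetylase that restrains MEF2, fell by 0.24 (adjusted p = 0.0276) and lost its call in 4 such cases (up to 0.0884). It read 9.34, 9.39 and 9.38 in controls, 9.08, 9.23 and 9.16 after LCN13 shRNA, 9.17, 9.19 and 9.20 after TSC22D4 shRNA and 9.21, 9.16 and 9.03 after both. The animals of every targeting group thus lay below all controls, and no regulator passed after LCN13 or TSC22D4 shRNA alone. The coactivator Ppargc1a had the largest difference of the list after LCN13 shRNA, 0.59, without passing (adjusted p = 0.0932).

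Genes of developing, denervated and heart muscle, 7 of contractile proteins and 3 of the acetylcholine receptor and cell adhesion (Chrng, Chrna1 and Ncam1), numbered 10, and the heart and embryonic skeletal actin Actc1 was the one that changed most. It read 11.12, 11.30 and 11.52 in controls, 11.50, 11.60 and 11.72 after LCN13 shRNA, 12.10, 12.34 and 11.86 after TSC22D4 shRNA and 12.70, 12.41 and 13.06 after both. The combined animals lay above all others, and Actc1 rose 2.67-fold against control (log2 difference 1.41, standard error 0.174, adjusted p = 0.00413) and 2.18-fold against LCN13 (1.12, adjusted p = 0.0114, limma). The call against control held whichever of the 12 animals was dropped (adjusted p up to 0.0156). The TSC22D4 animals also lay above all controls in Actc1, by 0.79 in the mean. No gene of this list passed after TSC22D4 or LCN13 shRNA alone, between the combined and TSC22D4 groups or in the interaction. Myl4, the light chain of atrial and embryonic muscle, was lower by 0.43 in the combined group than in the LCN13 group (adjusted p = 0.0227, and 0.0608 without LCN13 animal 23), and its values were highest in the LCN13 animals, at 9.29, 9.34 and 9.48 against 9.00 to 9.14 in controls. The embryonic and perinatal myosins Myh3 and Myh8 stayed between 5.27 and 5.94 over all 12 animals, near the median of the arrays.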

How the data were processed

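RNA of gastrocnemius from 12 mice was hybridised to 1-colour Affymetrix arrays. The authors deposited log2 levels of 25206 probe sets, made with RMA (background correction, normalization to equal distributions and summary over probes), per the submitters' processing notes. No source used here gives its version, the probe set definitions or the build. A shift shared by most transcripts would be removed by this normalization.

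The 23185 probe sets with 1 symbol were fitted over 12 arrays with 4 group means (lmFit and eBayes of limma 3.58.1, R 4.3.3, 8 residual and 1.69 prior degrees of freedom). Tests were two-sided, with Benjamini-Hochberg adjustment over all these genes and a threshold of 0.05. Pair relations used 100000 permutations, adjusted over 8 pairs. The limma fit was tested on simulated data in which genes varied independently. The scores, pair relations and window searches were not tested in this way. The genes, their slow, fast and common classes, the other lists and the alternatives were chosen with earlier results of these data known. Named were all 36 genes, genes of the other lists past the threshold (up to 4 a list by adjusted p) or with the largest difference, and the 5 genes most alike and most opposed to the slow score. Alternatives were all probe sets, genes above the median, trend and robust options, quantile normalization, median centring, array weights, the compared arrays alone, slow and fast classes without their 7 less restricted genes, and each array left out.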

Additional observations from a re-analysis of the deposited data

How the results depend on the processing

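No paired analysis was possible because the animal numbers differ between the groups and pair no samples. With only the arrays of the compared groups, the sarcomere genes past the threshold numbered 0 in place of 1 for LCN13 against control, 0 in place of 3 for both viruses against control and 0 in place of 2 for both against LCN13. For both against LCN13 the number was also 0 with genes above the median level, with the trend and robust options and with array weights. In the test across 4 groups it was 1 in place of 2 under each of these last 3 settings. With genes above the median level and with trend and robust options, both Myom1 and Ttn lost the call across groups and Mylk2 gained it (adjusted p = 0.0354 and 0.0282), while with array weights Myom1 kept it and Ttn did not (0.0503, limma). After LCN13 shRNA the same 2 settings replaced Myom1 (0.0562 and 0.0555) by Mylk2 (0.0477 and 0.0400), and Mylk2 also passed without LCN13 animal 22 (0.0381). All probe sets left these counts as they were. So did quantile normalization and median centring, which could change little because the arrays already shared a common set of values. Without the 7 less restricted genes, the slow minus fast difference was 0.059 in place of 0.089 for both viruses against control and -0.095 in place of -0.063 for both against TSC22D4.

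With 1 animal left out, the count ran from 0 to 2 for LCN13 against control, 1 to 3 for both against control, 0 to 1 for both against LCN13, 0 to 3 across the 4 groups, and 0 to 0 for TSC22D4 against control, both against TSC22D4 and the interaction. The slow minus fast difference ran from 0.097 to 0.34 for LCN13, from 0.036 to 0.28 for TSC22D4 and from -0.027 to 0.22 for both viruses against control. It ran from -0.17 to 0.043 for both against TSC22D4, from -0.25 to -0.018 for both against LCN13 and from -0.40 to -0.16 for the interaction. The largest shift of the median of all genes under any alternative was 0.0137. With 3 animals a group, the median standard error of a difference was 0.180 for the slow genes and 0.0381 for the fast genes.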
